A study of Mus musculus with 12 samples.

Results

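The transcription factor AP-1 and the other immediate early genes of the same growth factor response were followed through 10 of the 24537 genes in the deposited expression table, picked by name: Fos, Fosb, Fosl1, Fosl2, Jun, Junb, Jund, Atf3, Egr1 and Ier2. All 10 symbols were in the table. The libraries came from 3 mice of the strain Pdgfra-creERxLSL-tdTomato, in which a tamoxifen-dependent Cre recombinase driven from the Pdgfra gene switches on a red fluorescent reporter, so all groups share those alleles. Each of the 4 groups had 1 library per mouse: Pdgfra (+) adipose-derived stromal cells (ADSCs) cultured from subcutaneous fat, iSEPs obtained in culture (in vitro iSEPs), iSEPs obtained in the animal (in vivo iSEPs), and keratinocytes cultured from back skin. iSEPs are induced stratified epithelial progenitors, and the in vivo iSEPs are primary cultures of epithelium into which Pdgfra (+) ADSCs had been turned within the animal. ADSCs grew in DMEM with 10% fetal bovine serum and the other 3 groups in serum-free keratinocyte medium, so for every difference from ADSCs the cell type and the medium cannot be told apart. The labels give no age, and they do not name the factors used for conversion or say how long after feeding or passage RNA was taken.

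AP-1 is a pair of bZIP proteins, most often a Fos family member joined to a Jun family member, bound to DNA. Transcription of Fos, Fosb, Jun, Junb, Egr1, Ier2 and Atf3 starts within minutes of a growth factor, serum or stress signal, without new protein synthesis, and the messengers of Fos and Egr1 are short-lived, so their level is known to depend on when cells were last fed or disturbed. In epidermis, AP-1 members differ in where they are made between the basal and upper layers, and AP-1 sites lie in the promoters of many keratin and cornified envelope genes.

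Start-site windows of 300 bases are shown for 3 of the members that the table holds, Fos, Junb and Atf3, which had the largest differences from ADSCs among those members, from 250 bases before the start to 50 after it, from RefSeq on GRCm38.p6, 5′ to 3′ on the strand of the gene. The table matched 7 of the 10 members: Fos, Fosb, Fosl2, Jun, Junb, Jund and Atf3. Capitals mark TGACG or its reverse complement, the core of the cyclic AMP response element that CREB and ATF proteins bind, and TATAAA. The windows are chr12:85473640-85473939 (plus strand) for Fos, chr8:84978699-84978998 (minus strand) for Junb and chr1:191183284-191183583 (minus strand) for Atf3.
Fos: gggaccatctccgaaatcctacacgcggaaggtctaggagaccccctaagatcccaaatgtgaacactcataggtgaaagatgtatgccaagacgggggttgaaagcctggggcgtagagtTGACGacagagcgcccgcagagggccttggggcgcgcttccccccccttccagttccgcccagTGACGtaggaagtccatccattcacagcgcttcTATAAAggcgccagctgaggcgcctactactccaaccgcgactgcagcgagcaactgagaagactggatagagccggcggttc
Junb: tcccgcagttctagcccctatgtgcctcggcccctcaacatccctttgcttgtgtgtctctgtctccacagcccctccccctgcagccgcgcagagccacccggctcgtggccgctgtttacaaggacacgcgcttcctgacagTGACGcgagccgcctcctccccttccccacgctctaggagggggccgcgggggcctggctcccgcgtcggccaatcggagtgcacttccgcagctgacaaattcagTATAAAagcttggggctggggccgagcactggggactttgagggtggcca
Atf3: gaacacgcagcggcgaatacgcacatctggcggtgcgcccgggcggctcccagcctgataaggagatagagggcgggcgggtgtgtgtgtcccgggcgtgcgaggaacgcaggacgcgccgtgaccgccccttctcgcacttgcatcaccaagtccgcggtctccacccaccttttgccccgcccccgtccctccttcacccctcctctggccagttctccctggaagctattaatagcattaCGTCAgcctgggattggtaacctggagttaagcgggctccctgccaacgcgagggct
With both strands searched, TGACG was in 4 of the 7 windows (Fos, Fosb, Junb and Atf3), against 20.8% of 32851 RefSeq windows of the same length. TATAAA was in 2 of the 7 (Fos and Junb), against 13.6% of windows. The Fos match was at bases -33 to -28 from the start, and the Junb match at bases 1 to 6, beginning at the listed start itself. The EGR motif GCGNGGGCG was also in 2, Fosb and Fosl2, against 5.55%. The AP-1 site TGANTCA (7.81% of windows), the whole element TGACGTCA (1.79%), which contains TGACG, and the CArG box of serum response factor (1.63%) had no match in the 7. A match is a run of letters and shows no binding. A missing match means only that these exact patterns were absent from 250 bases before the start to 50 after it. Sites further away, or with other letters, were not searched.

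The tested values are FPKM, read counts scaled to transcript length and library size as deposited, and differences are on the log2(FPKM + 1) scale. limma was fitted to all 12 libraries, and a gene was called at a Benjamini-Hochberg adjusted p below 0.05 over the 12364 genes that reached 1 FPKM in at least 3 libraries. This kept 9 of the 10 members, all but Fosb. The FPKM steps gave scaling totals of 24810000 to 31890000 reads per library, with 21010000 to 27770000 reads in the listed genes, and 10845 to 11349 genes reached 1 FPKM. The summed FPKM of 10 basal keratinocyte markers was 14.2 to 16.3 in ADSCs and 12319 to 26922 in the other 9 libraries, as labelled. The fibroblast sum was 8873 to 11290 in ADSCs, 109 to 335 in in vitro iSEPs, 30.2 to 189 in in vivo iSEPs and 43.2 to 53.1 in keratinocytes. Of 9 fibroblast markers tested, 6 were called higher in in vitro iSEPs than in keratinocytes, beside 5.22% of all genes. Against in vitro iSEPs, 5 were called lower in in vivo iSEPs, beside 0.946% of all genes. The suprabasal sum, of which 1 of 10 markers was at 0 in every ADSC library, was 15.4 to 22.3 in ADSCs, 341 to 390 in keratinocytes, 392 to 1161 in in vivo iSEPs and 899 to 2805 in in vitro iSEPs. The pericyte and smooth muscle sum was 1523 to 3139 in ADSCs and 802 to 2983 in in vivo iSEPs, against 185 to 566 in the other groups, but in in vivo iSEPs it was nearly all Acta2 (798 to 2943 FPKM), with Cnn1 at 4.11 to 31.4, Myh11 at 0.071 to 7.78, and the pericyte genes Rgs5, Des and Cspg4 at or below 0.21. The immune sum was at most 74.6, in the ADSCs of mouse 2, with 2 to 4 of 10 markers at 0 in every library of a group. The in vivo iSEP library of mouse 3 stood apart from its group in Krt18, at 95.5 FPKM against 2.79 and 2.66 for mice 1 and 2, and in Krt8, at 103 against 0.159 and 0.166. The part of these differences in the results below was not tested.

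Among the Fos family, Fos was low in ADSCs and high in in vitro iSEPs. Fos (chr12:85473901-85477270), the classical Fos partner of Jun, was at 4.21, 2.85 and 5.38 FPKM in the ADSCs of mice 1, 2 and 3. The in vitro iSEPs held 38.6, 38.8 and 40.7 FPKM. Fos was at 10.2, 19.1 and 13.1 in in vivo iSEPs, and at 18.0, 15.4 and 12.96 in keratinocytes. All in vitro iSEP libraries lay above all other libraries and all ADSC libraries lay below them, while the in vivo iSEPs and keratinocytes overlapped. The mean was 39.3 ± 1.17 FPKM (SD, n = 3) in in vitro iSEPs and 4.15 ± 1.27 (n = 3) in ADSCs, a 9.49-fold difference, with a log2 difference of 3.00 (SE 0.23, adjusted p = 9.6e-07). In vivo iSEPs (14.1 ± 4.56) were 3.41-fold above ADSCs, by 1.54 on the log2 scale (adjusted p = 0.00019), and keratinocytes (15.5 ± 2.54) 3.73-fold, by 1.70 (adjusted p = 8.37e-05). In vitro iSEPs were 2.55-fold above keratinocytes, by 1.30 (adjusted p = 0.00547), and 2.78-fold above in vivo iSEPs, where the in vivo minus in vitro difference was -1.46 (adjusted p = 0.0126). The call between the 2 kinds of iSEPs was lost without the in vitro library of mouse 3 (-1.43, adjusted p = 0.0589) and without any 1 mouse (adjusted p = 0.0808 to 0.121), and that against keratinocytes without mouse 3 (1.17, adjusted p = 0.0767). The 3 calls against ADSCs held in every fit tried. In vivo iSEPs and keratinocytes differed by -0.15 (adjusted p = 0.76). In bulk libraries, fewer cells making a transcript and less transcript per cell cannot be told apart.

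**Figure D1:**
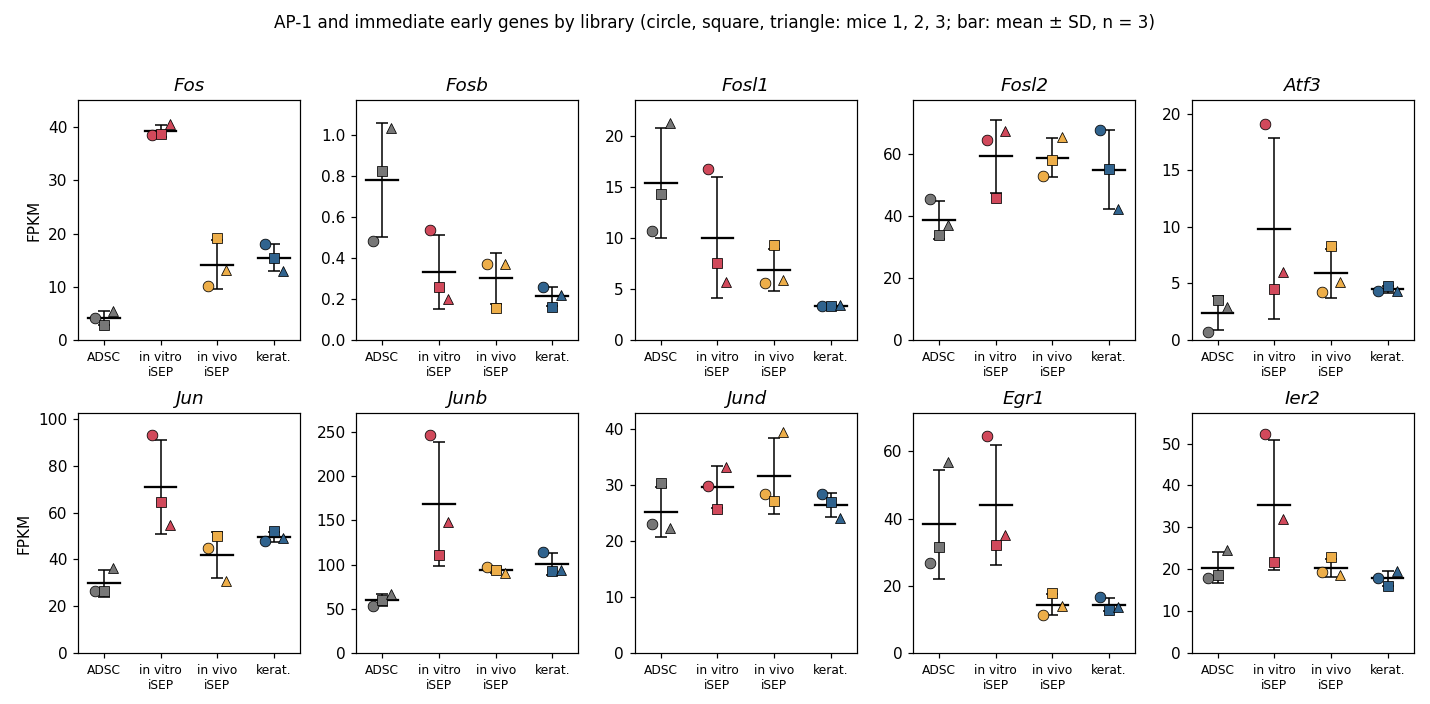
FPKM of each of the 10 members (y axes, from 0, one scale per panel) in the 3 libraries of each group (circle, square and triangle for mice 1, 2 and 3; horizontal line and whiskers for the mean and SD). The in vitro iSEP points of Fos lie between 38.6 and 40.7, above every other library, and the 3 ADSC points lie between 2.85 and 5.38.

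Against ADSCs, Fosl1 ran the other way, with calls in keratinocytes and in vivo iSEPs only. Fosl1 (chr19:5447698-5455938), which encodes the Fos-related protein Fra-1 that lacks the transactivation domain of Fos, was at 10.7, 14.3 and 21.3 FPKM in the ADSCs of mice 1 to 3, and at 16.8, 7.55 and 5.69 in in vitro iSEPs. The in vivo iSEPs held 5.54, 9.27 and 5.89 FPKM and the keratinocytes 3.28, 3.32 and 3.40. The keratinocyte libraries were below all others, and the in vitro iSEP library of mouse 1 lay within the ADSC range. Keratinocytes (3.33 ± 0.0628) were 4.63-fold below ADSCs (15.4 ± 5.4), by -1.87 (SE 0.34, adjusted p = 0.000799), and in vivo iSEPs (6.9 ± 2.06) 2.23-fold below, by -1.03 (adjusted p = 0.0273). In vitro iSEPs differed from ADSCs by -0.66 (adjusted p = 0.128), and by -1.07 (adjusted p = 0.00849) without the library of mouse 1. In vitro iSEPs were 3.00-fold above keratinocytes, by 1.22 (adjusted p = 0.0431, and 0.073 with the mouse as a block). That call was lost in 12 of 23 other fits, for example without the in vitro library of mouse 1 (0.80, adjusted p = 0.0983). The call of in vivo iSEPs against ADSCs was lost in 6 of 23, for example without the in vivo library of mouse 3 (-0.95, adjusted p = 0.063) or the ADSC library of mouse 3 (-0.79, adjusted p = 0.11), and that of keratinocytes in none. The ratio of Fos to Fosl1 FPKM ran from 0.20 to 0.39 in ADSCs, 3.81 to 5.497 in keratinocytes, 1.84 to 2.23 in in vivo iSEPs and 2.30 to 7.15 in in vitro iSEPs, so Fosl1 was the higher of the pair in each ADSC library and Fos in each of the other 9.

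Fosl2 (chr5:32136472-32157839), which encodes Fra-2, had the highest FPKM of the family in every group. It was at 45.6, 33.8 and 36.9 FPKM in ADSCs, and the in vitro iSEPs held 64.6, 45.7 and 67.5. Keratinocytes were at 67.7, 55.0 and 42.1 FPKM, and the libraries of in vivo iSEPs at 53.0, 57.9 and 65.5. The 3 epithelial groups overlapped one another, and only the keratinocytes overlapped the ADSCs. The difference of in vitro iSEPs from ADSCs was 0.59 (adjusted p = 0.0262), that of in vivo iSEPs 0.59 (adjusted p = 0.0282) and that of keratinocytes 0.48 (adjusted p = 0.0621). When libraries were scaled to equal medians the first became 0.43 (adjusted p = 0.0982) and the second 0.47 (adjusted p = 0.0765). Each was lost in 8 of 23 other fits, with an adjusted p of up to 0.137 and 0.185. Fosb (chr7:19302696-19310045), the remaining family member, was at most 1.04 FPKM in any library, at 0.484, 0.825 and 1.04 in ADSCs, and at 0.537, 0.258 and 0.2 in in vitro iSEPs. It was at 0.373, 0.155 and 0.372 FPKM in in vivo iSEPs and at 0.256, 0.162 and 0.22 in keratinocytes, resting on 17 to 105 reads per library. In a fit with no filter, keratinocytes differed from ADSCs in Fosb by -0.54 (adjusted p = 0.00663), in vivo iSEPs by -0.45 (adjusted p = 0.0201) and in vitro iSEPs by -0.42 (adjusted p = 0.0251).

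The make-up of the family follows from these levels. Of the summed Fos family FPKM, Fos made up 6.91% ± 1.41 (SD, n = 3) in ADSCs, 21.0% ± 0.958 in keratinocytes, 17.4% ± 4.07 in in vivo iSEPs and 36.6% ± 5.06 in in vitro iSEPs. In the same order, Fosl1 made up 26.0% ± 7.84, 4.65% ± 1.07, 8.56% ± 1.95 and 9.04% ± 4.53, and Fosl2 65.7% ± 8.84, 74.0% ± 2.08, 73.6% ± 5.75 and 54.1% ± 4.85. The family sum was 59.1 ± 6.6, 74.0 ± 15.3, 80.2 ± 9.63 and 109 ± 14.8 FPKM. Shares were compared by description only.

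**Figure D2:**
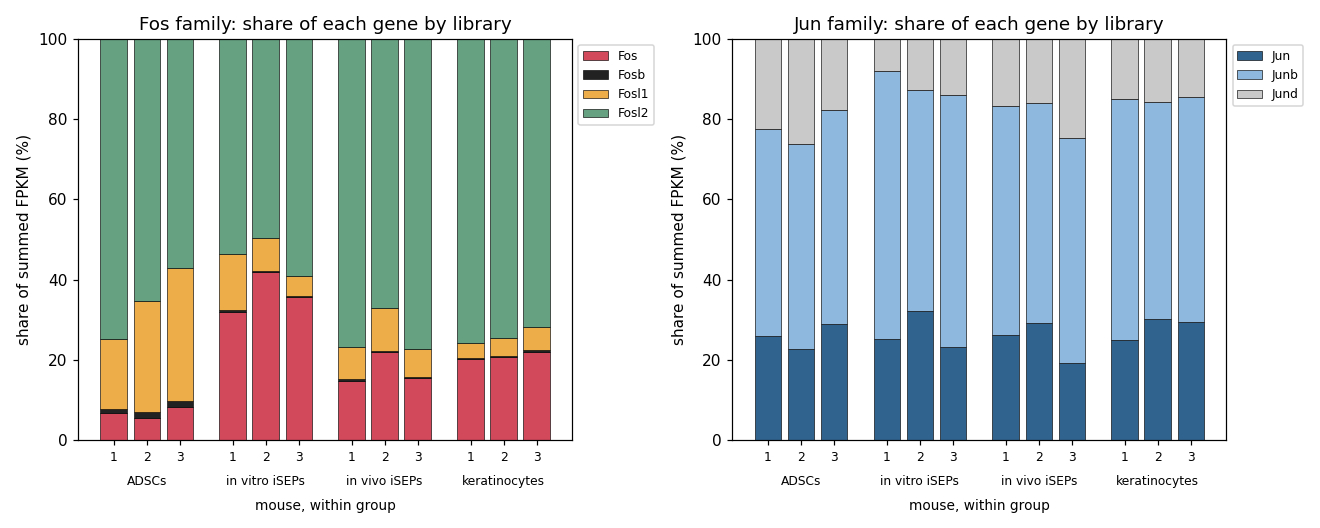
Share of the summed FPKM of the Fos family (left panel) and Jun family (right panel), in percent on the y axes, for each library on the x axes, grouped and numbered by mouse. Fos takes 32.0% to 42.0% of the Fos family in the in vitro iSEP libraries and 5.51% to 8.33% in the ADSC libraries.

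Junb was the most abundant member in every group, and Jun and Junb were higher in in vitro iSEPs than in ADSCs. Junb (chr8:84976909-84978748), a Jun family member that is a weaker activator than Jun and can oppose it, was at 52.7, 59.6 and 66.8 FPKM in ADSCs, and at 246.1, 110.6 and 148.1 in in vitro iSEPs. It was at 96.8, 94.1 and 89.9 in in vivo iSEPs and at 114.7, 93.2 and 94.2 in keratinocytes. Every library outside the ADSCs was above every ADSC library, and the in vitro library of mouse 1 was the highest of the 12. The in vitro iSEPs (168 ± 69.9) were 2.82-fold above ADSCs (59.7 ± 7.07), by 1.41 (SE 0.23, adjusted p = 0.000408). The in vivo iSEPs (93.6 ± 3.46) differed from ADSCs by 0.65 (adjusted p = 0.0402) and keratinocytes (100.7 ± 12.2) by 0.74 (adjusted p = 0.0193). Both calls were lost with median scaling, at 0.53 (adjusted p = 0.1) and 0.55 (adjusted p = 0.0808), the first of them in 14 of 23 other fits and the second in 5, while the in vitro call was lost in none. The in vitro iSEPs differed from keratinocytes by 0.66 (adjusted p = 0.0919) and the in vivo from the in vitro iSEPs by -0.76 (adjusted p = 0.144).

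Jun (chr4:95049036-95052222), the partner that gives AP-1 its strongest activation, was at 26.5, 26.3 and 36.5 FPKM in ADSCs, and at 93.3, 64.5 and 54.7 in in vitro iSEPs. It was at 44.7, 49.9 and 30.8 in in vivo iSEPs and at 47.9, 52.0 and 49.4 in keratinocytes. The in vitro libraries were above all others, and the in vivo library of mouse 3 fell within the ADSC range. In vitro iSEPs (70.9 ± 20) were 2.38-fold above ADSCs (29.8 ± 5.82), by 1.20 (SE 0.22, adjusted p = 0.000783), and keratinocytes (49.7 ± 2.08) 1.67-fold above, by 0.74 (adjusted p = 0.0151). That second call was lost with median scaling, at 0.55 (adjusted p = 0.0674), and in 5 of 23 other fits in all, and the in vitro call in none. In vivo iSEPs (41.8 ± 9.89) differed from ADSCs by 0.46 (adjusted p = 0.105), and by 0.66 (adjusted p = 0.0222) without the library of mouse 3, which stood apart in Krt8 and Krt18. Jund (chr8:70697739-70700616), which is expressed more steadily than the other Jun genes in most cells, was not called in any of the 6 comparisons. Its libraries ran from 22.3 to 30.4 FPKM in ADSCs, 24.1 to 28.4 in keratinocytes, 27.2 to 39.5 in in vivo iSEPs and 25.8 to 33.3 in in vitro iSEPs, with adjusted p of 0.147 to 0.876. As a share of the summed Jun family, Jund made up 22.1% ± 4.18 in ADSCs, 14.99% ± 0.68 in keratinocytes, 19.1% ± 4.84 in in vivo iSEPs and 11.7% ± 3.17 in in vitro iSEPs, and Junb 52.0% ± 1.04, 56.8% ± 3.04, 56.0% ± 0.99 and 61.5% ± 5.9.

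Atf3 and Ier2, 2 stress and growth factor responsive genes, were called in in vitro iSEPs against ADSCs, but not in every fit. Atf3 (chr1:191170297-191183333), a bZIP factor that can pair with Jun, was at 0.716, 3.53 and 2.89 FPKM in ADSCs and at 19.1, 4.46 and 5.99 in in vitro iSEPs. It was at 4.22, 8.28 and 5.13 in in vivo iSEPs and at 4.33, 4.79 and 4.29 in keratinocytes. The in vitro difference from ADSCs was 1.56 (SE 0.47, adjusted p = 0.0166) and was 4.14-fold in means, and the groups did not overlap. Without the in vitro library of mouse 1 it was 0.99 (adjusted p = 0.0525) and without the ADSC library of mouse 1 it was 1.13 (adjusted p = 0.0716). Atf3 differed from ADSCs by 1.10 in in vivo iSEPs (adjusted p = 0.0775) and by 0.81 in keratinocytes (adjusted p = 0.172). Neither of these groups overlapped the ADSCs either. Ier2 (chr8:84661331-84662852), a short immediate early gene, was at 17.8, 18.6 and 24.6 FPKM in ADSCs, and at 52.2, 21.8 and 32.0 in in vitro iSEPs. It was at 19.3, 22.8 and 18.7 in in vivo iSEPs and at 18.0, 16.02 and 19.6 in keratinocytes. The in vitro difference from ADSCs was 0.70 (adjusted p = 0.0369), with groups that overlapped, and 0.38 (adjusted p = 0.123) without the library of mouse 1. With every library kept it was also lost with no filter (adjusted p = 0.0561), median scaling (0.116), quantile normalization (0.0931) and only the 2 groups fitted (0.085), and in 10 of 23 other fits in all. The in vivo iSEPs (20.3 ± 2.22) and ADSCs (20.3 ± 3.73) differed by 0.00 (adjusted p = 0.991).

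Egr1 was high in ADSCs and in vitro iSEPs and low in the other 2 groups. Egr1, on chromosome 18, is a zinc finger factor that responds to serum and growth factors. It was at 26.7, 31.4 and 56.8 FPKM in ADSCs and at 64.6, 32.2 and 35.2 in in vitro iSEPs. The in vivo iSEPs held 11.4, 17.7 and 13.97 and the keratinocytes 16.6, 12.9 and 13.8. Every library of the first 2 groups was above every library of the last 2. Egr1 differed between in vitro iSEPs and ADSCs by 0.20 (adjusted p = 0.604). In vivo iSEPs (14.4 ± 3.17) were 2.67-fold below ADSCs (38.3 ± 16.2), by -1.30 (adjusted p = 0.00459), and keratinocytes (14.4 ± 1.92) 2.66-fold below, by -1.28 (adjusted p = 0.00451). In vitro iSEPs (44.0 ± 17.9) were 3.05-fold above keratinocytes, by 1.48 (adjusted p = 0.0125), and in vivo iSEPs were 3.06-fold below in vitro iSEPs, by -1.50 (SE 0.31, adjusted p = 0.0397). With the mouse as a block the last adjusted p was 0.0736, and the call was lost in 16 of 23 other fits, with an adjusted p of up to 0.262. The call between in vitro iSEPs and keratinocytes was lost in 3 of 23: without mouse 2 (adjusted p = 0.119), without mouse 3 (0.0591) and without the keratinocyte library of mouse 2 (0.0552). Without mouse 3 in all groups, the calls of Egr1 against ADSCs were lost for in vivo iSEPs (adjusted p = 0.0588) and keratinocytes (adjusted p = 0.0641).

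In order of level, Junb was first in each group, and Fosb last. Fos was 8th of 10 in ADSCs, where its libraries lay below those of Fosl1, 6th in keratinocytes, 7th in in vivo iSEPs and 5th in in vitro iSEPs. Its libraries overlapped those of the next higher gene in the 3 epithelial groups, so those ranks do not separate. Egr1 was 3rd in ADSCs and 6th in in vivo iSEPs.

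Of the 9 members tested, 6 were higher and none lower in in vitro iSEPs than in ADSCs (Fos, Fosl2, Jun, Junb, Atf3 and Ier2), where 53.8% of all genes tested were called, 32.1% higher and 21.7% lower. In in vivo iSEPs, 3 were higher than in ADSCs (Fos, Fosl2 and Junb) and 2 lower (Fosl1 and Egr1), where 47.6% of all genes were called, 27.6% higher and 20.0% lower. In keratinocytes, 3 were higher (Fos, Jun and Junb) and the same 2 lower, where 53.5% of all genes were called, 32.8% higher and 20.7% lower. These 3 comparisons share the ADSC libraries, and counts of this size lie near the share of all genes called. The median log2 difference of the 9 members against that of all genes was 0.70 against 0.15 for in vitro iSEPs, 0.46 against 0.14 for in vivo iSEPs and 0.48 against 0.18 for keratinocytes. With median scaling, 47.3%, 48.1% and 46.8% of called genes were higher, against 59.7%, 57.9% and 61.4% without it. At an unadjusted p below 0.05 there were 6 members in each of the 3 comparisons, beside 58.8%, 54.1% and 58.9% of all genes. The groups did not overlap for 5 of the 9 members in the first comparison, where this held for 63.7% of all genes, for 6 in the second (54.2%) and for 6 in the third (69.5%).

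**Figure D3:**
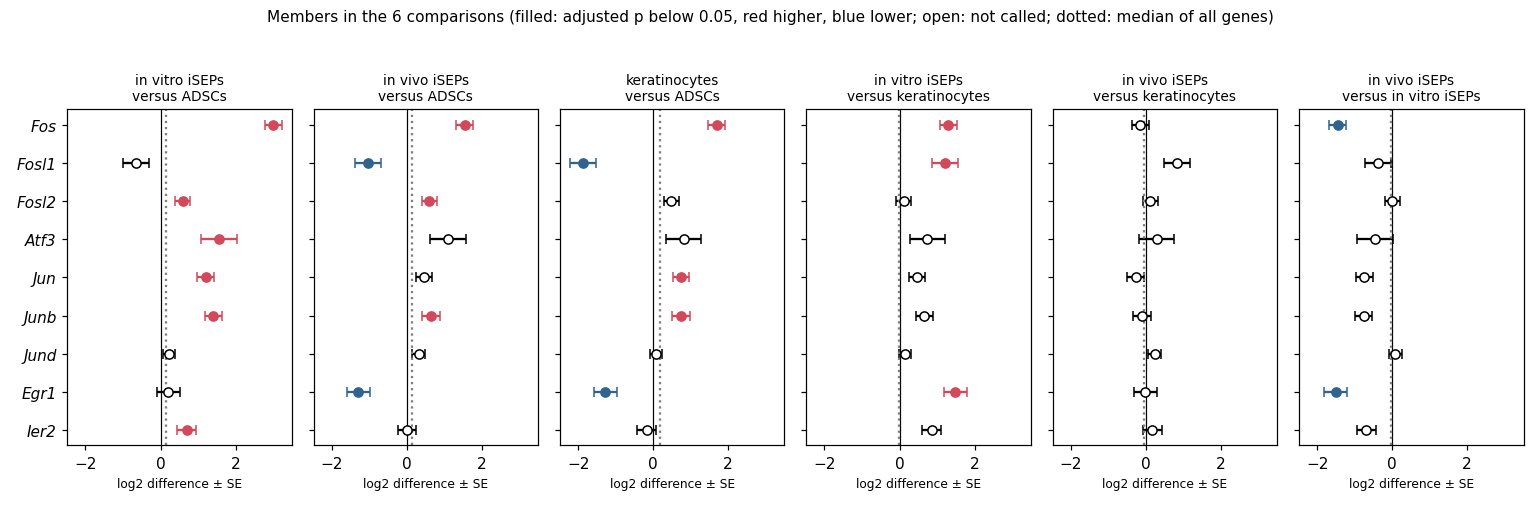
Difference of each member in log2(FPKM + 1) (x axis) for 9 members (y axis) in the 6 comparisons (panels), with bars for the standard error, filled symbols where the adjusted p is below 0.05 (red higher, blue lower) and a dotted line at the median of all genes. Fos has the largest difference from ADSCs, at 3.00 in in vitro iSEPs, and Fosl1 the lowest, at -1.87 in keratinocytes.

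Between the 3 epithelial groups, the calls were fewer. In vitro iSEPs had 3 members higher and none lower than keratinocytes (Fos, Fosl1 and Egr1), where 11.3% of all genes were called, 5.22% higher and 6.12% lower, and the median of the members was 0.74 against -0.02 for all genes. In vivo iSEPs had 2 members lower and none higher than in vitro iSEPs (Fos and Egr1), where 1.63% of all genes were called, 0.679% higher and 0.946% lower, with medians of -0.69 and -0.03. In vivo iSEPs and keratinocytes had 0 members called by limma, where 7.48% of all genes were called, and 1 member, Fosl1, was at an unadjusted p below 0.05, beside 22.6% of all genes (difference 0.84, adjusted p = 0.174). Of all genes, 3.41% were higher and 4.08% lower there. At an unadjusted p below 0.05 there were 5 members for in vitro iSEPs against keratinocytes (28.1% of all genes) and 5 for the 2 kinds of iSEPs (14.9%). The groups did not overlap for 5 members between in vitro iSEPs and keratinocytes (40.8% of all genes), 1 between in vivo iSEPs and keratinocytes (27.8%) and 4 between the 2 kinds of iSEPs (15.0%). Between in vivo iSEPs and keratinocytes, 45.5% of called genes were higher, and 56.5% with median scaling. With the mouse as a block, 128 genes were called between in vivo and in vitro iSEPs, where the fit without it called 201, and 1 of the members.

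One library of in vitro iSEPs was high across much of the list. The library of mouse 1 had the highest FPKM of the 12 libraries for Jun, Junb, Atf3, Egr1 and Ier2, 5 of the 9 members tested (55.6%), against 10.9% of all genes tested. Its Fos value, 38.6 FPKM, was the lowest of its group. It was the highest of 12 for 15 of 44 other immediate early genes (34.1%) and for none of 11 heat shock genes. The summed FPKM of the heat shock genes was 785 there and 1151 and 1195 in mice 2 and 3. Much of that gap was Hspb1, at 260, 555 and 584 FPKM in mice 1, 2 and 3. Other heat shock genes ran either way, with Dnajb1 at 60.0, 56.5 and 57.9 and Hspa8 at 140, 188 and 179. The suprabasal marker sum of the mouse 1 library, 2805, was also the highest in the group. The part of the heat shock and suprabasal genes in the member levels was not tested. Without that library, 4 members were called between in vitro iSEPs and ADSCs: Fos, Jun and Junb higher and Fosl1 lower, where 6297 of the 12364 genes were called. Without the in vivo library of mouse 3, 3 members were called between in vivo iSEPs and ADSCs, Fos and Jun higher and Egr1 lower, and 1, Fos, between the 2 kinds of iSEPs, where 6281 and 360 of the 12364 genes were called.

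Among 15 other immediate early transcription factors tested, of 17 listed, 5 were higher and 6 lower in in vitro iSEPs than in ADSCs, 4 and 7 in keratinocytes, and 5 and 8 in in vivo iSEPs. Of all genes tested, 32.1% were higher and 21.7% lower in in vitro iSEPs. The shares were 32.8% and 20.7% in keratinocytes and 27.6% and 20.0% in in vivo iSEPs. Nr4a1, an orphan nuclear receptor induced by serum, was at 43.1 ± 5.16 FPKM in ADSCs and 2.58 ± 2.06 in in vitro iSEPs (-3.77, adjusted p = 4.06e-06). It was at 1.36 ± 0.151 in keratinocytes and 2.18 ± 0.836 in in vivo iSEPs. Egr2, a relative of Egr1, was at 13.3 ± 7.01 in ADSCs and 0.385 ± 0.433 in in vitro iSEPs (-3.27, adjusted p = 4.76e-05). Klf2, a zinc finger factor, was at 9.33 ± 1.15 in ADSCs and 0.504 ± 0.105 in in vitro iSEPs (-2.78, adjusted p = 3.95e-08). Klf10, a TGF-beta inducible repressor, was at 5.25 ± 0.988 in ADSCs. It was higher in in vitro iSEPs, at 35.3 ± 9.86 (2.52), and in keratinocytes, at 61.8 ± 7.15 (3.34, adjusted p = 5.25e-07).

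Among 29 other immediate early effector and feedback genes tested, of 30 listed, 15 were higher and 6 lower in in vitro iSEPs than in ADSCs, 10 and 5 in in vivo iSEPs, and 11 and 8 in keratinocytes. For all genes the shares were 32.1% and 21.7% in in vitro iSEPs, 27.6% and 20.0% in in vivo iSEPs, and 32.8% and 20.7% in keratinocytes. Nfkbia, the inhibitor of NF-kappa-B, was at 8.29 ± 1.03 FPKM in ADSCs and 97.1 ± 23.7 in in vitro iSEPs (3.38, adjusted p = 3.72e-07). It was at 59.3 ± 16.6 in keratinocytes and 71.2 ± 16 in in vivo iSEPs. Sik1, a salt-inducible kinase, was at 4.55 ± 0.757 in ADSCs, and at 46.3 ± 8.8, 44.8 ± 5.3 and 40.9 ± 7.03 in the other groups in the same order. Gadd45b, a stress sensor, was at 21.3 ± 5.11 in ADSCs and 127 ± 39.5 in in vitro iSEPs (2.51, adjusted p = 2.25e-05). Ctgf, a matricellular protein gene, was at 771 ± 413 FPKM in ADSCs. It was lower in in vitro iSEPs, at 110 ± 50.9 (-2.73, adjusted p = 0.0166), and in keratinocytes, at 61.5 ± 6.41. In in vivo iSEPs Ctgf was at 48.0, 328 and 731 FPKM, overlapped the ADSCs and was not called (-1.57, adjusted p = 0.144). Gadd45g was higher in in vitro iSEPs, at 57.7 ± 12.4, than in keratinocytes, at 8.04 ± 0.53 (2.68, adjusted p = 0.00179). Zfp36, whose protein destabilises immediate early messengers, was the 1 gene of the list called between in vivo and in vitro iSEPs, at 16.9 ± 3.02 against 45.1 ± 11.3 (-1.35, adjusted p = 0.0325). In that comparison 1.63% of all genes were called.

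**Figure D4:**
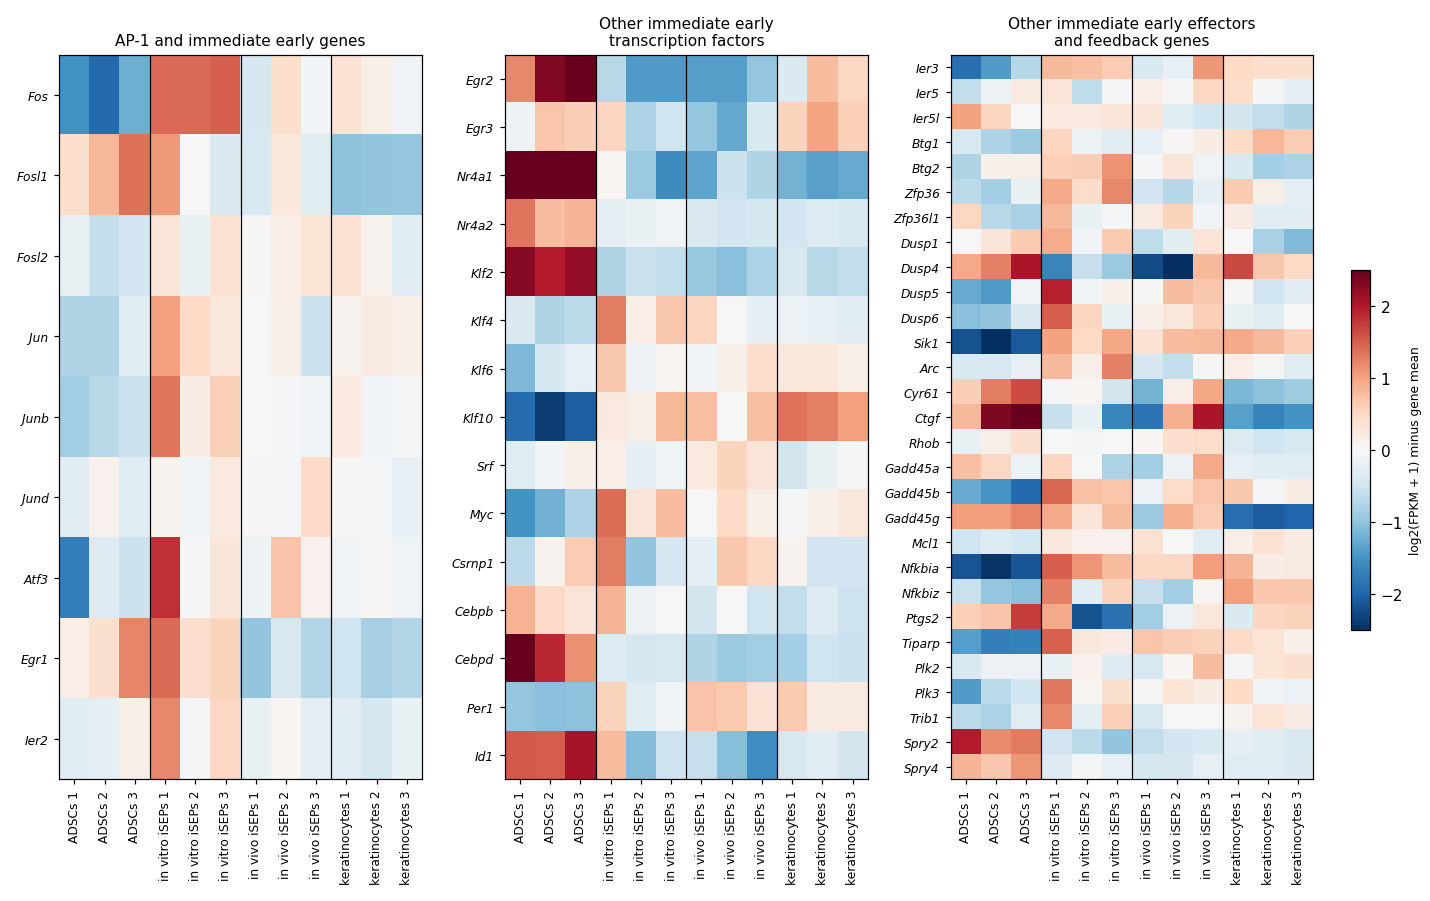
Heat map of log2(FPKM + 1) of the 9 members tested and 44 other immediate early genes (rows, 3 panels), each centred on its mean over the 12 libraries, in each library (columns, by group and mouse), with the colour scale in log2 units, capped at 2.5 either way. Nr4a1 is high in the ADSC columns, at 43.1 FPKM on average, and Nfkbia is low there, at 8.29.

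Of 9 other AP-1 and Maf bZIP genes tested, of 13 listed, 3 were higher and 4 lower in in vitro iSEPs than in ADSCs, 2 and 3 in in vivo iSEPs, and 1 and 3 in keratinocytes. For all genes the shares were 32.1% and 21.7% in in vitro iSEPs, 27.6% and 20.0% in in vivo iSEPs, and 32.8% and 20.7% in keratinocytes. Jdp2, a Jun dimerization partner that represses AP-1, was at 42.7 ± 1.78 FPKM in ADSCs and 7.13 ± 1.31 in in vitro iSEPs (-2.44, adjusted p = 6.74e-06). It was at 9.22 ± 1.66 in keratinocytes (-2.11) and 11.4 ± 4.06 in in vivo iSEPs (-1.88). In this list limma called 0 genes in the 3 comparisons among epithelial groups, with 2 at an unadjusted p below 0.05 in each. Of all genes, 28.1% were at that level for in vitro iSEPs against keratinocytes, 22.6% for in vivo iSEPs against keratinocytes and 14.9% for the 2 kinds of iSEPs. Of 19 kinases and cofactors upstream of AP-1, 5 were higher and 6 lower in in vitro iSEPs than in ADSCs, 6 and 5 in in vivo iSEPs, and 5 and 3 in keratinocytes. The shares of all genes against ADSCs given for the bZIP list apply here too. Rps6ka1, a ribosomal S6 kinase downstream of ERK, was at 1.77 ± 0.188 FPKM in ADSCs and 17.3 ± 1.65 in in vitro iSEPs (2.72, adjusted p = 7.46e-08).

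Of 21 genes described as AP-1 targets, 6 were higher and 7 lower in in vitro iSEPs than in ADSCs, 6 and 8 in in vivo iSEPs, and 8 and 7 in keratinocytes. For all genes the shares were 32.1% and 21.7% in in vitro iSEPs, 27.6% and 20.0% in in vivo iSEPs, and 32.8% and 20.7% in keratinocytes. Sprr1b, which encodes a cornified envelope precursor, was at 0.082 ± 0.0407 FPKM in ADSCs and 236 ± 108 in in vitro iSEPs (7.65, adjusted p = 1.97e-07). Ccnd1, the cyclin D1 gene, was at 34.5 ± 8.64 FPKM in in vivo iSEPs against 99.6 ± 29.2 in in vitro iSEPs (-1.49, adjusted p = 0.0465). These targets include keratins and matrix genes that also mark epithelial and mesenchymal cells. Of 11 heat shock genes, 5 were called higher in in vitro iSEPs than in ADSCs, 6 in keratinocytes and 6 in in vivo iSEPs. None was called lower, and 6 were at an unadjusted limma p below 0.05 in each. In that order, 58.8%, 58.9% and 54.1% of all genes were at an unadjusted p below 0.05 by limma. Hspb1, a small heat shock protein gene, was at 21.5 ± 7.1 FPKM in ADSCs and 466 ± 179 in in vitro iSEPs (4.33, adjusted p = 1.36e-06). Across these lists, for in vitro iSEPs against ADSCs, the median log2 difference was -0.32 for the transcription factor list, 0.59 for the effector list, -0.34 for the bZIP list, 0.09 for the upstream list, 0.38 for the target list and 0.44 for the heat shock list, beside 0.15 for all genes. Heat shock genes can respond to handling, and their part in the levels of the members was not tested.

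Genes with the profile nearest to that of a member over the 12 libraries were found by the root mean square difference of centred log2(FPKM + 1), among 9517 genes. For Fos the nearest were Deptor (0.37), Lmx1b (0.38) and Tmem265 (0.39). For Fosl1 they were Plekho2 (0.33), Arhgap29 (0.33) and Hk2 (0.35), and for Egr1 they were Irs1 (0.35), Tsc22d1 (0.40) and Pdlim2 (0.42). The mean of Deptor was 0.86 FPKM in ADSCs and 9.47 in in vitro iSEPs.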

How the data were processed

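RNA came from a spin-column kit and 1 ug of it went into each TruSeq library, per the labels' protocols. The tools that the submitters' processing notes list are STAR 2.5.1b, FastQC 0.11.5 and HOMER, with the mm10 build. The deposited values are FPKM from the authors, which per the file headers come from HOMER counting of exon reads on 1 strand with genes condensed to 1 row each, and the column of transcript length was used to recover read totals. The library kit does not mark strand, so reads from a gene and an overlapping antisense gene cannot be told apart. Counting on 1 strand from such a kit may keep only reads of 1 orientation, so the recovered read numbers, those of Fosb included, may be part of the reads sequenced. Whole reads were checked from the steps of low values within 0.15 reads, and 100% came out whole. A further 3 value columns, whose names fit none of the samples described, were not used.

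The 12 libraries, 3 mice in each of 4 groups, were analysed in R 4.3.3 with limma 3.58.1 on log2(FPKM + 1), with a mean-dependent prior, over the 12364 of 24537 genes at 1 FPKM or more in at least 3 libraries. The 6 group contrasts came from 1 fit, two-sided, with Benjamini-Hochberg adjustment. The fit was also run on simulated data, where few genes were changed, in in vitro iSEPs only, and libraries were not paired by mouse. These data differ in those respects, so that run says little about the calls. Scripts used Python 3.11.15. The members and all gene and marker lists were chosen with earlier results of these data known. All 10 members were named, with up to 4 called genes of each list per comparison by largest log2 difference, and the 3 genes nearest in profile to Fos, Fosl1 and Egr1. Some genes that this rule names are not reported here. Same-numbered libraries come from the same mouse per the labels' titles, which pairs them. Their deviations from group means correlated at -0.18 to 0.21 (median 0.05, 18 pairs), against -0.29 to 0.31 (median -0.01, 36 pairs) for different mice. Each library is a separate culture only as far as the labels say.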

Additional observations from a re-analysis of the deposited data

How the results depend on the processing

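The 54 results of the 9 tested members (9 in each of 6 comparisons) and the counts of called genes were recomputed under 23 alternatives: a pseudocount of 0.1, a filter at 5 FPKM, no filter, median scaling, quantile normalization, only the 2 groups compared, no trend in the prior variance, a replicate block, and 15 fits that left out a mouse or 1 library. No member difference changed sign among the calls, and 6 of the 21 calls held in all: Fos in the 3 comparisons with ADSCs, Jun and Junb in in vitro iSEPs against ADSCs, and Fosl1 in keratinocytes against ADSCs. 8 differences that were not called passed in at least 1 alternative. In in vivo iSEPs against ADSCs, the 5 members called became 3 with median scaling and 3 with quantile normalization. In keratinocytes against ADSCs the 5 became 3 with median scaling. Over the alternatives that kept every library, 4644 to 6945 genes were called in the first of these comparisons (5888 in the main fit). In the second 5176 to 7938 were called (6616), and in in vivo against in vitro iSEPs 1 to 243 (201). In in vivo iSEPs against keratinocytes, the 925 genes became 424 with only the 2 groups. In in vivo against in vitro iSEPs, the 2 members became 1 with no filter, 1 with median scaling, 0 with only the 2 groups and 1 with the replicate block, and the 201 genes became 1 with only the 2 groups and 128 with the replicate block. The replicate block changed the calls of Fosl1 (in vitro iSEPs against keratinocytes) and Egr1 (in vivo against in vitro iSEPs) and no other member call. Across the fits that left out a library or mouse, called genes and called members ran from 4295 to 7152 and 3 to 6 (in vitro iSEPs against ADSCs), 3486 to 6281 and 2 to 6 (in vivo iSEPs against ADSCs), 3920 to 7087 and 3 to 6 (keratinocytes against ADSCs), 193 to 2107 and 0 to 4 (in vitro iSEPs against keratinocytes), 35 to 1676 and 0 to 0 (in vivo iSEPs against keratinocytes), and 2 to 360 and 0 to 4 (in vivo against in vitro iSEPs). The call of Fos between in vivo and in vitro iSEPs was lost without mouse 1 (adjusted p = 0.0808), mouse 2 (0.093) or mouse 3 (0.121), without the in vitro library of mouse 3 (0.0589) and with only the 2 groups (0.187). The cause of these shifts was not tested, beyond the smaller number of samples in the fits that leave samples out. With 3 libraries a group, and 17 to 105 reads behind Fosb, small differences were not detectable.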
